A study of Homo sapiens with 6 samples.

Results

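The regions described here are the 377 islands of untreated HepG2 chromatin in which immunoprecipitated (IP) reads of tagged METTL14 most clearly outnumbered the input reads. An island is a stretch of neighbouring windows that the caller SICER joined because IP reads gathered there. A member is a nuclear island wider than 1200 bp and narrower than 20000 bp, with at least 150 IP reads and a ratio of IP reads to input reads of at least 1.4. These limits kept 377 of 38696 untreated candidate islands, and 32859 islands met the limits on width and IP reads alone. HepG2 is a human hepatocellular carcinoma line. Every library, the inputs included, came from HepG2 cells infected with a PLJM1 lentivirus for METTL14 with an HA tag at its N-terminus and EGFP at its C-terminus, selected with puromycin and sorted for high GFP to obtain high expression of the fusion protein. Untreated cells gave 2 IP libraries, made with an anti-HA antibody, and 2 inputs. Treatment with DRB (100 µM, 3 h) is represented by a single IP library with its input. For each island and condition the deposited tables hold 1 IP count and 1 input count, and the labels link the untreated table to both replicates, so replicate error cannot be given. All intervals are exact 95% intervals and cover counting error only.

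METTL14 is the partner of METTL3 in the complex that adds N6-methyladenosine to RNA, and the complex works largely while the RNA is still being made, so METTL14 can be crosslinked to chromatin of transcribed genes. DRB inhibits the kinase CDK9, which polymerase II needs to leave the pause near the start of a gene, and thereby blocks elongation of most messenger RNAs. Comparing both conditions addresses METTL14 occupancy of chromatin when elongation is blocked.

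Positions are those of hg19, without an annotation of that build. Loci are therefore named from general knowledge of the hg19 map, and an island is said to lie at a gene when it covers or borders it, without a statement on exon, intron or untranslated region. Of the 377 members, 66 were named in this way at 57 loci, and the others are given by position only. The symbols of all 66 were found in the RefSeq gene table of GRCh38.p14 on the same chromosome, within 2 Mb of the island's position. The names were given with the positions in view and the loci were grouped by hand, so counts of loci in a group are descriptions.

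Sequence of the islands themselves was not used here. To show what kind of start site the islands lie beside, the bases before the start of 4 short genes of the early and stress group described below are printed from RefSeq (GRCh38.p14), 250 bases each, read 5′ to 3′ towards the start. Capitals mark matches on either strand to 4 motifs. The letters TATAAA stand for the TATA box. The motif CCAAT gives its name to a second element, GGGCGG is the GC box, and the palindrome TGACGTCA is the cyclic AMP response element. Neighbouring matches can touch, as the GC box and CCAAT of RHOB do. Whether an island covers the printed bases was not tested.
RHOB: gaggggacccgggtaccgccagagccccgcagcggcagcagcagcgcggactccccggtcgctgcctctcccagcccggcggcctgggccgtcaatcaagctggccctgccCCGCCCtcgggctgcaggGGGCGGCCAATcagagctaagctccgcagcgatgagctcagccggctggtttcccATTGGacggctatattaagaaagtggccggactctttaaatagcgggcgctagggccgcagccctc
JUND: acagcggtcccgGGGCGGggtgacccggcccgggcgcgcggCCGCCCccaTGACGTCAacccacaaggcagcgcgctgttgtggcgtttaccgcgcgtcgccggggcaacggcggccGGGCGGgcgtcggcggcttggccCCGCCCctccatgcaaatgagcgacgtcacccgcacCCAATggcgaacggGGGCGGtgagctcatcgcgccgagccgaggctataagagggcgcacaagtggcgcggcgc
JUN: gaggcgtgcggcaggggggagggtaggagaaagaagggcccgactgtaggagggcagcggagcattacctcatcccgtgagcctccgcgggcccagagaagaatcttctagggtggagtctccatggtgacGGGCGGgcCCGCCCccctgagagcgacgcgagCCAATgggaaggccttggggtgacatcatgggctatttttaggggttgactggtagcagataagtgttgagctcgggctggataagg
DUSP1: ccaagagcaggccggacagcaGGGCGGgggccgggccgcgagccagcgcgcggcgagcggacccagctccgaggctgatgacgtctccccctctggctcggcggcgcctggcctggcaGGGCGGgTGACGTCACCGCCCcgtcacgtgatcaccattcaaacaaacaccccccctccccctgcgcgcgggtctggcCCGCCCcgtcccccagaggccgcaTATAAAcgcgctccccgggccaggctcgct

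The TATA box match of DUSP1 begins 30 bases before its start, and its cyclic AMP response element touches a GC box on the other strand. JUND has the same 8-base element 200 bases before its start. RHOB and JUN have CCAAT boxes and no exact match to the other 2 elements apart from GC boxes. Among the 33 named loci with an entry in the promoter table, METTL14 and PGK1 left out, 30 promoters held a GC box on either strand in the window from 250 bases before to 50 after the start, 12 a CCAAT box, 10 a TATA box and 4 the cyclic AMP response element. Over all 27305 genes with a promoter in the table, the shares were 44.6%, 35.7%, 11.95% and 1.98%. A match describes the letters only.

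Enrichment at most members was modest. The median member had 206 IP reads (quartiles 172 and 283) and 137 input reads (113 and 185), a ratio of 1.49 (1.44 and 1.61). Multiplied by the authors' scaling of 1.07, this is a fold of 1.599, and the ratio limit itself stands for a fold of 1.502. A ratio of 2 or more was reached by 28 members, and 199 lay under 1.5, so "well above input" describes the upper tail rather than the typical member. The lowest bound of any member's interval was 1.17-fold. Islands within the limits but under the ratio threshold had a median ratio of 1.00 (quartiles 0.94 and 1.08). The rule fixed these values, and they are not evidence of binding beyond it.

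**Figure D1:**
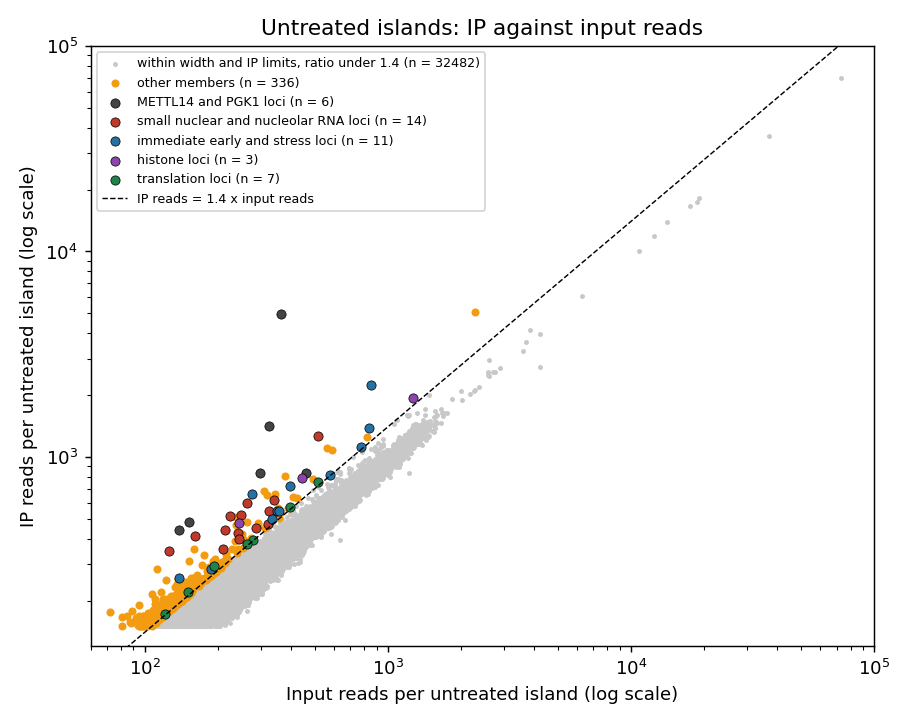
IP reads (vertical, log scale) against input reads (horizontal, log scale) of each untreated island within the width and IP limits; colored points are members, grouped by locus, and grey points are islands under the ratio of 1.4, drawn as the dashed line. Most members hug the line, while PGK1, with 4943 IP reads against 365 input reads, lies farthest above it.

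The threshold fell in a continuous range. The 5 members nearest to it had ratios of 1.4 to 1.402 and 157 to 217 IP reads: chr3:96526801-96531400, chr6:153827601-153831000, chr8:141636001-141638000, chr6:54312201-54316200 and chr1:150639601-150642200. The 5 islands just below it had ratios of 1.3986 to 1.3996 and 193 to 690 IP reads: chr19:49374401-49384200, chr19:41826401-41833200, chr15:60665401-60667800, chr2:44327001-44332400 and chr7:38903401-38907400. All 377 members were in the authors' deposited list of significant untreated islands, which held 5.1% of all nuclear candidates and 4.55% of those within the width and IP limits; that list rests on the same reads as the rule. Members were narrower than the other islands within the limits, with a median of 3.0 kb against 5.2 kb. Their input was not unusually dense: relative to the median of all nuclear islands, reads per kb of input stood at 0.93 (quartiles 0.70 and 1.17). Non-member islands within 10 kb of a member had a median ratio of 1.04 (226 islands).

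The 5 highest ratios were at genes that may match the introduced construct. PGK1, a glycolytic enzyme whose promoter is used in many expression vectors, had 4943 IP and 365 input reads at chrX:77359201-77361000, a 14.5-fold enrichment (13.1 to 16.2). METTL14 itself held 5 members between 119604401 and 119633400 on chromosome 4, with folds of 1.95, 3.44, 3.39, 2.99 and 4.67 from the lowest to the highest position. Input density was also raised there, at 3.88 times the median of all nuclear islands on PGK1 and 1.14 to 1.63 times on METTL14. The part of vector DNA in these 6 islands was not tested. A member without a gene name, chr1:17222201-17223600, also ranked among the 10 highest ratios, with 177 IP and 72 input reads, 2.64-fold (1.99 to 3.52). Without the PGK1 and METTL14 islands the highest fold was 2.96 and the median ratio of the other 371 members was 1.49.

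Small nuclear and nucleolar RNA genes were named at 14 members. They encode the short, highly transcribed RNAs of the spliceosome and of ribosomal RNA processing, made without introns or a poly(A) tail. Of the 14, 7 were among the 28 members with a ratio of 2 or more; METTL14 and PGK1 made up 5 of these 28. Their median fold was 2.08 (quartiles 1.81 and 2.45), with 348 to 1271 IP reads each. Input density at all 14 lay above the median of nuclear islands, at 1.15 to 2.25 times it. Several of these RNAs have near-identical gene copies elsewhere, and how reads that match several places were counted is not given, so the split of reads between copies is uncertain.

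Spliceosomal RNAs of the major pathway gave most of them. RNU5F-1, a copy of the U5 RNA that holds the exons together during splicing, had 348 IP and 126 input reads at chr1:45186601-45188400, 2.96-fold (2.41 to 3.66). RNU2-2, a gene for the U2 RNA that pairs with the branch point, had 1271 IP and 518 input reads at chr11:62606001-62610400, 2.63-fold (2.38 to 2.92). RNU1-1, for the U1 RNA that recognizes the 5′ splice site, had 594 and 265 reads at chr1:16839201-16842800, 2.41-fold (2.08 to 2.79). Further copies of the U5 gene were at 1.75-fold to 2.26-fold: RNU5E-1 at 2.26, RNU5D-1 at 1.88, RNU5A-1 at 1.80 and RNU5B-1 at 1.75. RNU4-2, whose product pairs with the U6 RNA, reached 1.95-fold (1.71 to 2.23). The intervals of RNU5F-1, RNU2-2 and RNU1-1 overlap, so no order among them can be read.

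The minor spliceosome and nucleolar RNAs had like values. RNU11, which recognizes the 5′ splice site of the rare minor introns, had 514 IP and 224 input reads at chr1:28972801-28976400, 2.46-fold (2.10 to 2.89). RNU12, its partner at the branch point, had 442 and 215 reads at chr22:43009801-43012200, 2.21-fold (1.87 to 2.61). SNORD118, the U8 RNA needed to process large-subunit ribosomal RNA, had 414 and 161 reads at chr17:8076001-8077800, 2.76-fold (2.29 to 3.33). SNORD13, which helps modify small-subunit ribosomal RNA, was at 1.82-fold (1.53 to 2.17). RNU7-1, whose RNA directs the cutting of histone messenger RNA ends, was at 1.68-fold (1.44 to 1.95). RNU6-1, a U6 gene and the only one of these transcribed by polymerase III, had the lowest value, 470 IP and 323 input reads at chr15:68131001-68133800, 1.56-fold (1.35 to 1.80).

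Immediate early and stress genes were named at 11 members, 7 of them from a list of 50 such genes and RHOB, TNFRSF12A, TNFAIP3 and PHLDA1 added by hand after their values were seen. Many genes of this kind are short and switched on within minutes by growth factors or stress, and many encode transcription factors. The 11 members had a median fold of 1.67 (quartiles 1.61 and 1.98), and their islands were wide, with a median of 7.4 kb. RHOB, a small GTPase induced by growth factors and DNA damage, had the most reads of them, 2229 IP against 854 input at chr2:20642601-20654000, 2.80-fold (2.59 to 3.03). JUND, a subunit of the AP-1 transcription factor, had 658 and 276 reads at chr19:18388801-18393400, 2.56-fold (2.22 to 2.95). The intervals of RHOB and JUND overlap.

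Other AP-1 subunits had lower folds, although the intervals of FOSB and JUND overlap. FOSB had 258 IP and 138 input reads at chr19:45976401-45979800, 2.01-fold (1.63 to 2.48), and JUN had 720 and 397 reads at chr1:59244401-59252200, 1.95-fold (1.72 to 2.21). KLF6, a zinc finger factor abundant in liver, had 1384 and 835 reads over the 16.4 kb of chr10:3815201-3831600, 1.78-fold (1.63 to 1.94). The surface receptor TNFRSF12A was at 1.67-fold, the matrix protein gene CCN1 at 1.65-fold, TNFAIP3, a brake on NF-kB signalling, at 1.62-fold, and ATF4, the main factor of the integrated stress response, at 1.59-fold. PHLDA1 at 1.56-fold and DUSP1, the phosphatase that shuts off MAP kinases, at 1.51-fold lay near the threshold. PHLDA1 was the last of 3 members in a row that span 91.4 kb of chromosome 12 from 76337601.

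Histone and translation genes were present with smaller numbers. At chr6:26147601-26164400, the widest member (16.8 kb), the H1-4 linker histone locus of the replication-dependent cluster had 1933 IP and 1271 input reads, 1.63-fold (1.52 to 1.75). H2BC21 was at 1.89-fold (1.68 to 2.13), and the linker histone gene H1-10, which is transcribed outside S phase too, was at 2.11-fold (1.80 to 2.47). The 7 members named at translation genes had folds of 1.53 to 1.63. Among these, EEF1A1, the elongation factor that brings transfer RNA to the ribosome, held 2 neighbouring members at 1.53-fold and 1.54-fold, and EEF2, which moves the ribosome along, was at 1.63-fold (1.36 to 1.97). EIF4A1, the helicase of translation initiation, was at 1.58-fold, and the ribosomal protein genes RPS19, RPS9 and RPL3 were at 1.56-fold, 1.53-fold and 1.53-fold.

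IGFBP1, a secreted insulin-like growth factor binding protein of hepatocytes, held 2 members within 16 kb of chromosome 7. The larger, at chr7:45923401-45935200, had 1084 IP and 589 input reads, 1.97-fold (1.78 to 2.19), and the smaller was at 1.75-fold (1.46 to 2.11). CEBPA, a factor that maintains hepatocyte identity, had 422 and 251 reads at chr19:33789601-33795000, 1.80-fold (1.54 to 2.12). Of a list of 58 secreted plasma proteins of liver, only IGFBP1 was named at a member, and of 50 immediate early and stress genes, 7 were: ATF4, CCN1, DUSP1, FOSB, JUN, JUND and KLF6. The list of 20 liver transcription factors gave CEBPA, that of 34 RNA processing proteins PTBP1, that of 24 translation genes EEF1A1, EEF2, EIF4A1 and RPL3, and that of 24 replication-dependent histones H1-4 and H2BC21. No gene was named from the lists of 10 nuclear long noncoding RNAs, 11 microRNA hosts, 18 snoRNA hosts, 21 lipid genes and 19 MHC genes. These counts are lower limits, because 311 members carry no name. Besides METTL14, the only gene of a list of 20 m6A writers, readers and erasers was RBM15B, an RNA-binding subunit of the writer complex, with 170 IP and 110 input reads at chr3:51430601-51434200, 1.66-fold (1.297 to 2.13).

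Among the remaining named loci, PTBP1, a repressor of splicing, was at 2.13-fold (1.63 to 2.80) and ACTB, for cytoplasmic actin, at 2.20-fold (1.80 to 2.68). Over the TEX14 gene on chromosome 17, 3 members within 50.2 kb had folds of 2.36, 2.11 and 2.70, with 1433 IP and 661 input reads in all. MIDN, which brings nuclear proteins to the proteasome, had 1252 IP and 823 input reads over 14.6 kb, 1.63-fold (1.49 to 1.78). Outside the named loci, folds were lower: the 311 members without a name had a median ratio of 1.48, against 1.66 for the 66 named ones, which were also deeper (medians of 194 and 464.5 IP reads). Names were given by hand with these values in view.

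A few members lay in regions of very high DRB input. The island with the most IP reads, chr21:9825401-9839800, had 5059 IP and 2292 input reads untreated, 2.37-fold (2.25 to 2.49). With it, the islands at chr1:91851801-91853200, chr2:133011801-133013200, chr16:33963001-33965200, chr20:26187201-26190800 and PGK1 had a DRB input density of 10 or more times the median of DRB islands, up to 53.8 times. The 5 without a name had the most DRB reads of all members, up to 5271 on chromosome 21.

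**Figure D2:**
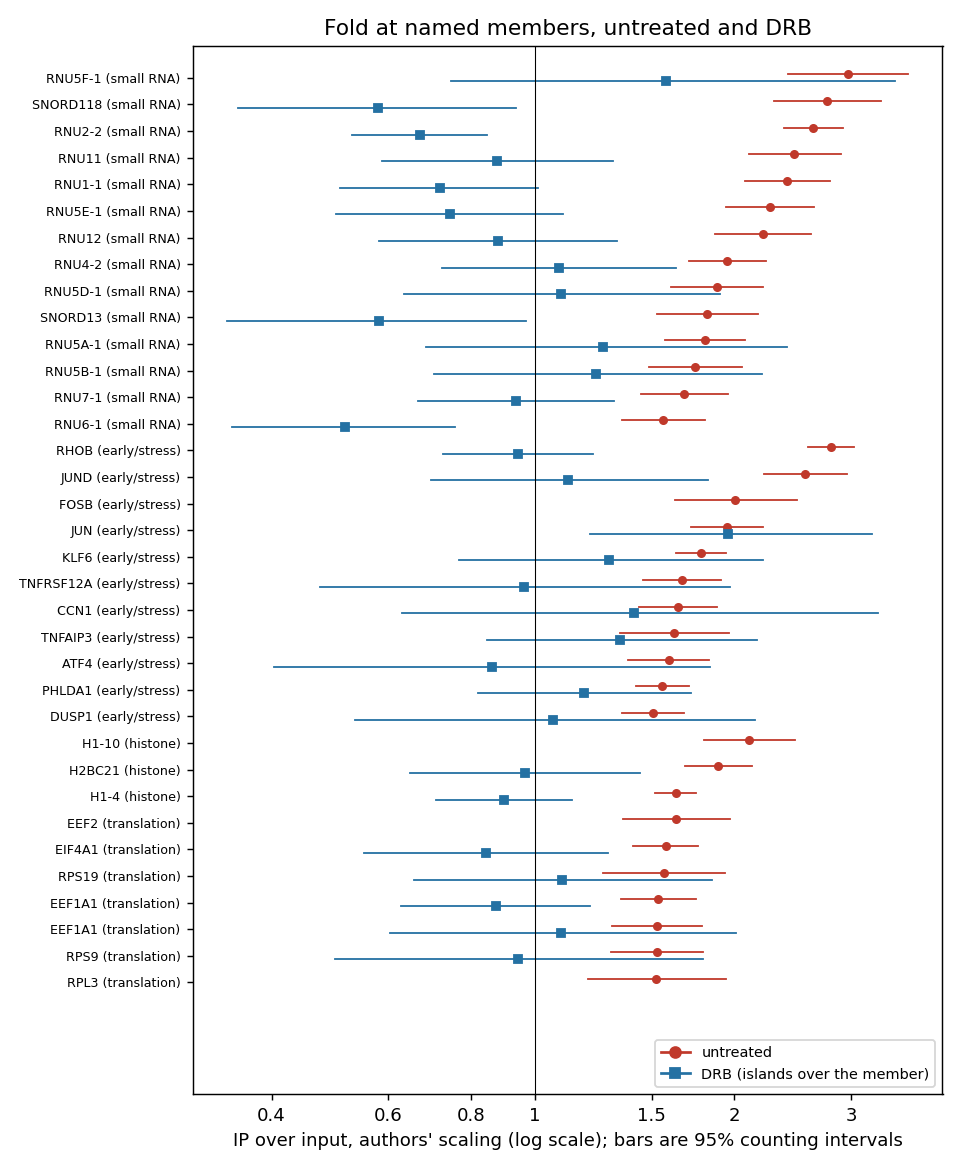
IP over input with the authors' scaling (horizontal, log scale) at members of 4 groups of loci, untreated (circles) and in the DRB islands over the same member (squares), with exact 95% counting intervals; rows without a square had no DRB island. The DRB intervals of SNORD118, RNU2-2, SNORD13 and RNU6-1 lie wholly below 1, while that of JUN lies above it.

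Fewer than 1 in 2 members had a DRB island over them. DRB candidate islands overlapped 162 of the 377 members by at least 1 bp (43.0%, 37.9 to 48.1), against 61.1% of all untreated nuclear islands and 62.4% of those within the limits. Members are narrower than the other islands, and the shares differed by chromosome and width. Chromosomes 2, 6, 14, 16, 17 and 20 were set apart as ones held to be gained in HepG2, and copy number was not measured here. Together they hold 62.3% of the islands within the limits. On this set the share with a DRB island was 48.5% of 101 members, against 67.1% of 20378 other islands. On the others it was 40.9% of 276 against 55.1% of 12104. For islands up to 3 kb wide the shares were 43.5% against 61.7% on the first set of chromosomes and 41.1% against 52.3% on the others. Over 3 and up to 6 kb they were 49.0% (49 members) against 56.9%, and 35.8% (106 members) against 49.6%. For those over 6 kb they were 83.3% (6 members) against 80.7%, and 68.4% (19 members) against 69.9%. At the small RNA loci 14 of 14 members had a DRB island, and at early and stress genes 10 of 11. In these 2 groups the DRB islands covered a median of 58.3% and 29.7% of the members they overlapped. No DRB island lay over IGFBP1, FOSB, H1-10, EEF2, PTBP1 or RBM15B. An uncovered member has no DRB value, and an absence of IP reads and too few reads for an island cannot be told apart there.

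Where DRB islands were present, IP over input at the members was near or slightly above 1. DRB reads were counted only in DRB islands, which SICER forms where DRB IP reads gather. This selection favors higher DRB folds, at members and other islands alike. Summed over the DRB islands on each member, the median DRB fold was 1.18 (quartiles 0.94 and 1.53; 162 members), against 1.29 (1.08 and 1.58) over all 23638 untreated nuclear islands with DRB reads. With input scaled instead to the median ratio of DRB islands, the median over members was 0.79 and that over all islands 0.86, so whether the median lay above 1 depended on the scaling. With the authors' scaling, a DRB fold under 1 was found in 50 of the 162 members (30.9%, 23.9 to 38.6) and in 17.1% of all islands with DRB reads. These sets differ in width, and up to 3 kb the shares were 25% of members against 28.6% of the other islands within the limits on chromosomes 2, 6, 14, 16, 17 and 20, and 27.4% against 25.2% on the other chromosomes. In wider islands the members' share was the higher one on both sets of chromosomes. Over 3 and up to 6 kb it was 25% against 15.4%, and 34.2% against 18.2%. Over 6 kb it was 100% (5 members) against 15.5%, and 30.8% (13 members) against 14.5%. Among members without a locus name the share with a DRB fold under 1 was 20.5% (23 of 112), and their median DRB fold was 1.33. The 50 covered members with a name had a lower median of 0.96 (quartiles 0.86 and 1.15), and names were given by hand. The DRB fold was below the member's untreated fold in 128 of 162, and for 38 of them the 2 intervals did not overlap. Selection on the untreated ratio favors this direction, so these counts are a description. A DRB fold of at least 1.502, the fold that the rule stands for, was reached by 44 of 162 members (27.2%); the background is 30.4% over all islands with DRB reads and 31.8% within the limits. The DRB islands covered a median of 53.8% of the member, so the conditions do not compare exactly the same bases.

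The DRB fold moved with the number of reads behind it. Among members with under 30 DRB reads in all, the median DRB fold was 1.73 (28 members), against 1.84 for the other islands within the limits at that depth. With 30 to 59 reads it was 1.19 (74 members) against 1.32, and with 60 or more it was 1.00 (60 members) against 1.202. The order was not the same in every split: on chromosomes 2, 6, 14, 16, 17 and 20 the members' median was 1.21 against 1.199 up to 3 kb of width, 1.399 against 1.35 over 3 and up to 6 kb, 0.87 (5 members) against 1.28 over 6 kb, and 1.29 against 1.302 over all widths. On the other chromosomes it was 1.19 against 1.22 up to 3 kb, 1.13 against 1.33 over 3 and up to 6 kb, and 1.17 against 1.31 over 6 kb. DRB input density differed between the sets, with a median of 1.43 times that of DRB islands over the members and 1.099 times over the other islands within the limits; its part in the DRB folds was not tested.

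An exact binomial test of DRB IP against input reads, with the authors' DRB scaling and Benjamini-Hochberg adjustment over all 23638 untreated nuclear islands with DRB reads, called few members. Because the tested reads come only from islands found by their DRB IP reads, the test is tilted towards IP above input. Its calls are therefore read beside the background. With the authors' scaling IP was above input in 3 of 162 members (1.85%), where the background is 0.241% (0.102% within the limits), and below it in 1 (0.617%), where the background is 0.25% (0.171% within the limits). Before adjustment, 25 of 162 members (15.4%) had a p under 0.05, close to the 13.9% of all islands. Scaled to the median ratio of DRB islands, 0 members were above input, with a background of 0.00423% (0.0% within the limits), and 21 below (12.96%), with a background of 6.29% (4.49% within the limits). The 3 above were all among the 6 members of high DRB input density, and without those 6 no member was above input and 1 was below. They were chr21:9825401-9839800 with 3075 IP and 2196 input reads, 1.21-fold (1.14 to 1.27, exact binomial test, adjusted p = 2.40e-08), chr16:33963001-33965200 with 495 and 292, 1.46-fold (1.26 to 1.69, adjusted p = 0.000176), and chr20:26187201-26190800 with 498 and 322, 1.33-fold (1.15 to 1.54, adjusted p = 0.0191). The 1 below was chr1:236259801-236262400, with 32 IP and 69 input reads, 0.40-fold (0.25 to 0.62, exact binomial test, adjusted p = 0.00393), against 477 and 294 reads and 1.74-fold untreated. DRB input there was 4.93 times the median density.

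**Figure D3:**
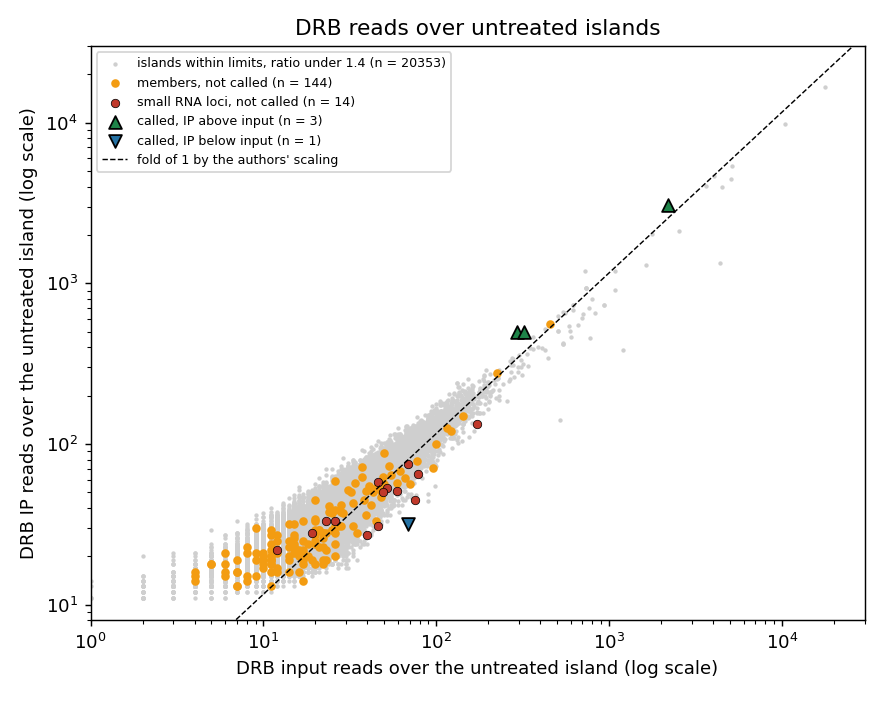
DRB IP reads (vertical, log scale) against DRB input reads (horizontal, log scale), summed over the DRB islands on each untreated island; orange and red points are members, triangles are the 4 members called by the exact binomial test, grey points are other islands within the limits, and the dashed line is a fold of 1. Most small RNA loci lie on or below the line, and the 3 upward triangles have at least 292 input reads.

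Summed over the small RNA loci, the DRB islands held more input than IP reads, while single loci went either way. Their 14 members had 704 IP and 765 input reads after DRB, a pooled fold of 0.79 (0.71 to 0.88), and the fold was under 1 in 9 of the 14. That interval covers counting error of the summed reads from 1 library of each kind, not the spread between loci. Pooled in the same way, the fold was 1.12 over all covered members and 1.14 over all untreated nuclear islands with DRB reads. The median of the 14 was 0.88, with a lowest value of 0.52 and a highest of 1.58. RNU2-2 had 133 IP and 171 input reads, 0.67-fold (0.53 to 0.84), SNORD118 had 31 and 46, 0.58-fold (0.36 to 0.93), SNORD13 had 27 and 40, 0.58-fold (0.34 to 0.97), and RNU6-1 had 45 and 75, 0.52-fold (0.35 to 0.76). None of the 14 passed the exact binomial test after adjustment over all islands: RNU6-1 and RNU2-2 came nearest (adjusted p = 0.0727 and 0.0813). Untreated and DRB intervals overlapped only for RNU5F-1, RNU5D-1, RNU5A-1 and RNU5B-1, with DRB folds of 1.58, 1.09, 1.27 and 1.23; for the other 10 the DRB interval was the lower one. DRB input density was higher over these loci as a set: its median over the 14 was 3.04 times that of DRB islands (1.43 to 7.65), against 1.43 times over all 162 covered members. RNU6-1, with the lowest fold (0.52), had the highest density (7.65 times), and RNU5F-1, with the highest fold (1.58), had the lowest (1.43 times). In between, SNORD118 at 0.58-fold had 2.99 times, SNORD13 at 0.58-fold 7.14 times and RNU11 at 0.88-fold 5.31 times. Input is also the denominator of the fold, and the part of input density in the low folds was not tested. Other named loci also pooled to under 1, with intervals that reach above 1. Translation genes were at 0.93 (0.76 to 1.14), PGK1 and METTL14 at 0.89 (0.76 to 1.05), and 11 ungrouped named members at 0.91 (0.79 to 1.04). Pooled folds at early and stress genes (1.15) and at 2 housekeeping members (1.27) were above 1.

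Early and stress genes had DRB folds of 0.86 to 1.95. The 10 covered members had 464 IP and 346 input reads, a pooled fold of 1.15 (1.00 to 1.33). This is close to the pooled background of 1.14 over all untreated nuclear islands with DRB reads. Over the other islands within the limits it was 1.17. JUN had 59 IP and 26 input reads, 1.95-fold (1.21 to 3.23), beside 1.95 untreated, but did not pass after adjustment (exact binomial test, adjusted p = 0.190). The DRB islands covered 30.8% of the JUN member, and a median of 29.7% of the covered members of this group. The DRB and untreated folds are thus not over the same bases. RHOB had 126 and 115 reads, 0.94-fold (0.73 to 1.23), and JUND had 43 and 33, 1.12-fold (0.70 to 1.82), both with DRB intervals wholly below their untreated ones. For the other 8 covered genes of the group the DRB and untreated intervals overlapped, on 29 to 126 DRB reads each. The covered histone loci H1-4 and H2BC21 were at 0.90-fold and 0.96-fold, with 205 IP and 193 input reads together, 0.91-fold (0.75 to 1.12), and each had its DRB interval below its untreated one. On PGK1 DRB gave 121 IP and 121 input reads, and 4 of the 5 METTL14 members had DRB folds of 0.69 to 1.01.

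The authors' deposited list of significant DRB islands overlapped 5 members (1.33%, 0.432 to 3.07), and 1.68% of all untreated nuclear islands (1.63% within the limits). These were the 3 regions of high input called above, chr2:31767401-31771200 with 21 IP and 6 input reads, and chr3:95728801-95732800 with 30 and 9; the last 2 did not pass the exact binomial test (adjusted p = 0.255 and 0.178). No locus with a name was among them.

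Members lay on every chromosome but Y, in shares that differed from those of the islands they were taken from. Of islands within the limits, 1.15% were members. The share was 7.09% on chromosome 19 (21 of 296), which is rich in genes, 5.75% on chromosome 22 (10 of 174), 4.70% on chromosome 21 (7 of 149) and 3.64% on chromosome 1 (57 of 1567). It was 38.9% on X, where only 18 islands met the limits. On chromosomes 2, 6, 14, 16, 17 and 20 together it was 0.493% (101 of 20479), against 2.23% on the others (276 of 12380). These chromosomes were not alike: the share was 0.208% on 20, 0.356% on 2, 0.457% on 6 and 0.580% on 16. It was 1.06% on 14 and 1.42% on 17. With gaps of at most 50 kb, 44 members fell into 19 runs, and 4 runs held 3 or more: METTL14 with 5, PHLDA1, TEX14, and 3 members with 1759 IP and 1158 input reads between 41392201 and 41448800 on chromosome 17.

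**Figure D4:**
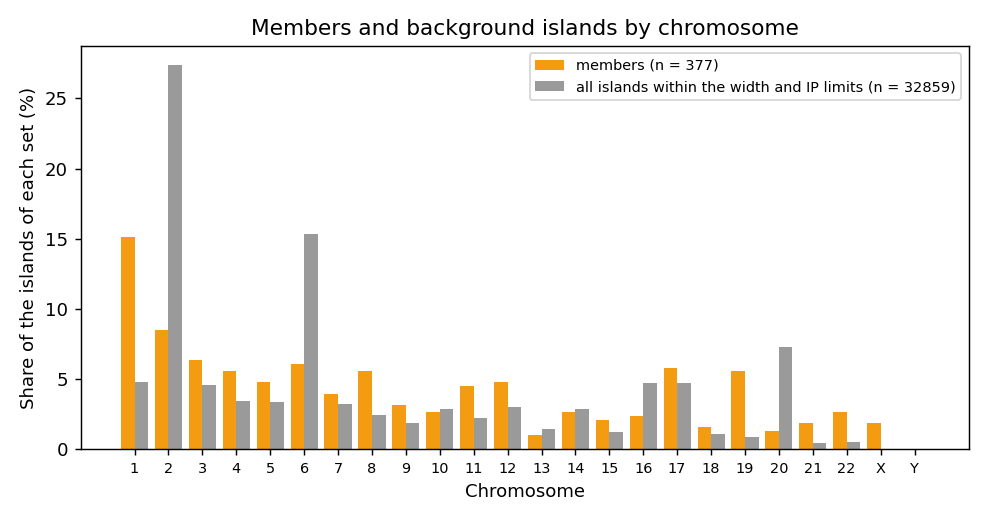
Share (vertical, in percent) of the 377 members and of all 32859 islands within the width and IP limits that lie on each chromosome (horizontal). Chromosomes 1 and 19 take a larger share of the members than of the islands, and chromosomes 2, 6 and 20 a smaller one.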

How the data were processed

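Per the submitters' processing notes, the authors used FastQC 0.11.5, Bowtie 1.1.2 and SICER on hg19. For SICER's settings, and for how the untreated replicates were pooled, the sources used here give nothing. The deposited values are whole counts of IP and input reads per island, the authors' fold (a ratio), a p-value and a false discovery rate. Tested on the files, the deposited fold is IP over input reads times 1.07 (untreated) or 0.861 (DRB), and the deposited lists hold islands under 1e-04. Nuclear islands held 14495388 IP and 14661480 input reads untreated, 1977419 and 1330018 with DRB, so DRB values are less precise. Starts and ends were raised by 1 to give 1-based positions.

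DRB reads were summed over islands overlapping an untreated island by 1 bp or more. Members, lists and tests were chosen with earlier results of these data known. Named members were the 10 highest ratios, the 5 with most IP reads, the 5 widest, those nearest the threshold, those with most DRB reads, those called, runs and members at listed genes; the other loci were named after their values were seen. The binomial test was also run on simulated data, with raised folds placed only in islands deeper than the median covered member. That run says nothing on its power at members with few DRB reads. The gene names of 2 members are not reported here. Planned counts over annotated genes and gene starts were not run. No replicates of a separate culture are stated, and reads are not independent molecules. Python 3.11.15, pandas 2.3.3 and SciPy 1.17.1 were used.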

Additional observations from a re-analysis of the deposited data

How the results depend on the processing

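The number of members followed the rule's limits: 377 became 858 at a ratio of 1.3, 99 at 1.6, 646 at 100 IP reads and 121 at 250, and stayed within 1.5 times with other widths, without islands of untreated input density 5 or more times the median (376) or without the METTL14 and PGK1 loci (371). At least 50% coverage by DRB islands left 93 of 162 members, whose median DRB fold was 1.13. Scaling DRB input to the median ratio of DRB islands turned the median DRB fold over members from 1.18 to 0.79 and changed the calls from 3 above and 1 below to 0 above and 21 below (background 0.00423% and 6.29%); that scaling takes the islands' own excess of IP as the baseline, and the median over all islands with DRB reads was then 0.86. Leaving out the 6 members with DRB input density 10 or more times the median took the calls above input from 3 to 0. The other alternatives kept each count of DRB calls within 1.5 times. Of the members, 368 stayed under a false discovery rate 10 times lower. Leaving out the METTL14 and PGK1 loci or the members of high DRB input density, and the splits by reads, chromosome and width, were chosen after seeing the data. No paired analysis was possible because the deposited columns pool the untreated replicates, and for the same reason leaving out a replicate was not run. Counts over annotated genes were not run for want of an hg19 annotation. DRB depth limits the test: the median covered member had 47 DRB reads.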
